A study of Macaca mulatta with 16 samples.

Results

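Genes of airway basal cells and of the epithelial keratin skeleton were followed in the lungs of 16 fetal rhesus macaques. The set was given by symbol: TP63, KRT5, KRT15, KRT17, KRT7, KRT8, KRT19, COL17A1, ITGB4 and SFN. Of these 10 symbols, 7 had a row among the 22515 genes of the count table, and all 7 passed the filter on low counts. KRT15, KRT17 and KRT8 matched no Ensembl ID with that symbol and were not analysed here. The 7 genes were TP63 (ENSMMUG00000016466), KRT5 (ENSMMUG00000055016), KRT7 (ENSMMUG00000010000), KRT19 (ENSMMUG00000018653), COL17A1 (ENSMMUG00000015325), ITGB4 (ENSMMUG00000021763) and SFN (ENSMMUG00000013855).

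The animals formed 5 groups, each fetus giving 1 library of left lung RNA. The 4 preterm controls had no labelled treatment and were delivered at 131 to 135 days of gestation, and the 2 term controls, also without treatment, at 156 and 157 days. The LPS 16 h group held 4 fetuses given 1 mg of lipopolysaccharide (LPS), a bacterial cell wall component, into the amniotic fluid at 129 or 130 days and delivered 16 hours later. The LPS group held 3 fetuses given the same dose at 126 to 129 days and delivered 5 days later. The LPS + Beta-Ac group held 3 fetuses given the same LPS at 126 or 127 days, whose dams were also injected intramuscularly with Beta-Ac (betamethasone acetate, a glucocorticoid) at 0.125 mg/kg, and delivered 5 days later. No group received Beta-Ac alone in the samples used here, so the steroid was compared only on top of LPS.

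Basal cells are the stem cells of the conducting airway epithelium. They sit on the basement membrane, depend on the transcription factor TP63, fill their cytoplasm with the keratin KRT5 and its partners, and anchor themselves through hemidesmosomes, in which the integrin subunit ITGB4 and the transmembrane collagen COL17A1 hold the keratin filaments to laminin. Simple epithelia, including the airway lining, the alveolar epithelium and the mesothelium, use KRT7, KRT8, KRT18 and KRT19 instead. SFN, or 14-3-3 sigma, is the epithelial member of the 14-3-3 adaptor proteins and a target of p53 and its relatives.

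Library totals ran from 30596371 to 48052891 counts in the LPS 16 h group and from 20169363 to 28348816 in the preterm controls, with the other groups between 20214144 and 27616930, so exposure for 16 hours and depth went together. Levels are given as CPM, counts scaled to a common library total and adjusted between libraries with TMM, a trimmed mean of log ratios. Surfactant genes marked the tissue as lung in every library, with SFTPB at 2590 CPM or more and SFTPC at 1800 CPM or more. In whole lung RNA, fewer cells of a type and less RNA per cell cannot be told apart.

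TP63, the master regulator of the basal cell, was a low gene in every group. In the preterm controls it read 0.131, 0.355, 0.556 and 3.35 CPM, from 3, 10, 12 and 92 counts, so that animal 209 stood far above the other 3. The 4 LPS 16 h fetuses lay close together at 0.771, 0.852, 0.930 and 1.44 CPM. At 5 days after LPS the values were 0.143, 0.654 and 1.11 CPM, and with Beta-Ac they were 0.218, 0.308 and 0.339 CPM, from 6 to 9 counts each. The term controls split, with 2.10 CPM in animal 200 and 0.291 CPM in animal 201. The order of the group means ran from LPS + Beta-Ac (0.288 ± 0.0632 CPM, SD, n = 3) through LPS (0.636 ± 0.485, n = 3), LPS 16 h (0.997 ± 0.30, n = 4) and preterm controls (1.10 ± 1.51, n = 4) to term controls (1.19 ± 1.28, n = 2), and each group overlapped its neighbours in that order.

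KRT5, the type II keratin of basal cells, varied more between animals of one group than any other of the 7 genes. The preterm controls read 0.532, 3.35, 19.2 and 45.6 CPM, an 85.7-fold range from 15 to 1252 counts, with animal 209 again the highest and animal 101 second. LPS 16 h fetuses read 4.83, 6.28, 10.3 and 23.6 CPM, the last in animal 029. After 5 days of LPS the values were 1.33, 4.68 and 11.3 CPM. All 3 LPS + Beta-Ac fetuses were low, at 0.641, 0.887 and 1.67 CPM, which still overlapped the lowest preterm control, the lowest LPS fetus and term control 201 at 0.841 CPM. Term control 200 read 24 CPM. The means were 17.2 ± 20.7 CPM (SD, n = 4) in preterm controls and 1.06 ± 0.536 (n = 3) in LPS + Beta-Ac, and neighbours in the order of means overlapped throughout. Within groups the SD of KRT5 was 1.97 on the log2 CPM scale, above that of 99.5% of the 19199 genes tested, against a median of 0.281 over those genes. KRT5 belongs to a family of similar genes, and its relatives KRT6A and KRT6B matched no ID, so how reads were shared between them is uncertain.

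COL17A1, the hemidesmosomal collagen, was low and followed the same animals. It read 0.568, 1.22, 1.90 and 6.41 CPM in preterm controls, the last in animal 209, and 0.958, 1.11, 1.67 and 2.61 CPM in LPS 16 h. LPS fetuses at 5 days read 0.475, 0.581 and 1.54 CPM. The 3 LPS + Beta-Ac fetuses read 0.0377, 0.290 and 0.347 CPM, from 1, 8 and 9 counts, below every preterm control and every LPS fetus. The term controls again split into 2.57 CPM in animal 200 and 0.162 CPM in animal 201. LPS + Beta-Ac was the lowest group by mean (0.225 ± 0.165 CPM, SD, n = 3) and did not overlap the next, LPS (0.864 ± 0.584, n = 3). The remaining neighbours overlapped. How many of all genes lacked overlap between the same groups was not counted, so overlap is given throughout as a description.

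ITGB4, the integrin subunit of the hemidesmosome receptor, showed another order. The 4 LPS 16 h fetuses read 8.4, 11.8, 13.2 and 18.3 CPM, and the 3 LPS fetuses at 5 days read 23.4, 28.6 and 72.3 CPM, without overlap. Preterm controls lay between them at 13.7, 18.9, 27.3 and 31.0 CPM and overlapped both. LPS + Beta-Ac fetuses read 15.5, 16.9 and 29.0 CPM, and the term controls read 64.3 CPM in animal 200 and 23.1 CPM in animal 201. Animals 239 (LPS) and 200 (term) were the 2 high readings of the whole series.

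KRT7 and KRT19, the simple epithelial keratins, were read from 1171 counts or more in every library and were steadier. KRT7 read 82.4 to 118 CPM in preterm controls, 47.4 to 112 in LPS 16 h, 55.7 to 144 in LPS, 81.7 to 104 in LPS + Beta-Ac, and 70.9 and 190 in the term controls, and every group overlapped its neighbours. KRT19 read 139, 148, 187 and 251 CPM in preterm controls. In LPS 16 h it read 92.9, 112, 117 and 220 CPM, with animal 029 set above the other 3. The LPS fetuses at 5 days read 245, 245 and 318 CPM and the LPS + Beta-Ac fetuses 235, 249 and 291 CPM, so all 6 lay above all 4 animals of LPS 16 h. Term controls read 152 and 248 CPM.

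SFN was low and of a narrower range than KRT5. Preterm controls read 0.602, 0.923, 1.61 and 2.37 CPM, LPS 16 h fetuses 1.70, 1.72, 2.56 and 3.88, LPS fetuses 1.45, 1.81 and 4.53, LPS + Beta-Ac fetuses 2.22, 2.39 and 2.97, and the term controls 0.971 and 1.54. The means of the 3 LPS-exposed groups, at 2.46 ± 1.03 (SD, n = 4), 2.60 ± 1.68 (n = 3) and 2.53 ± 0.391 CPM (n = 3), lay above both control means, but each overlapped the preterm controls.

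**Figure D1:**
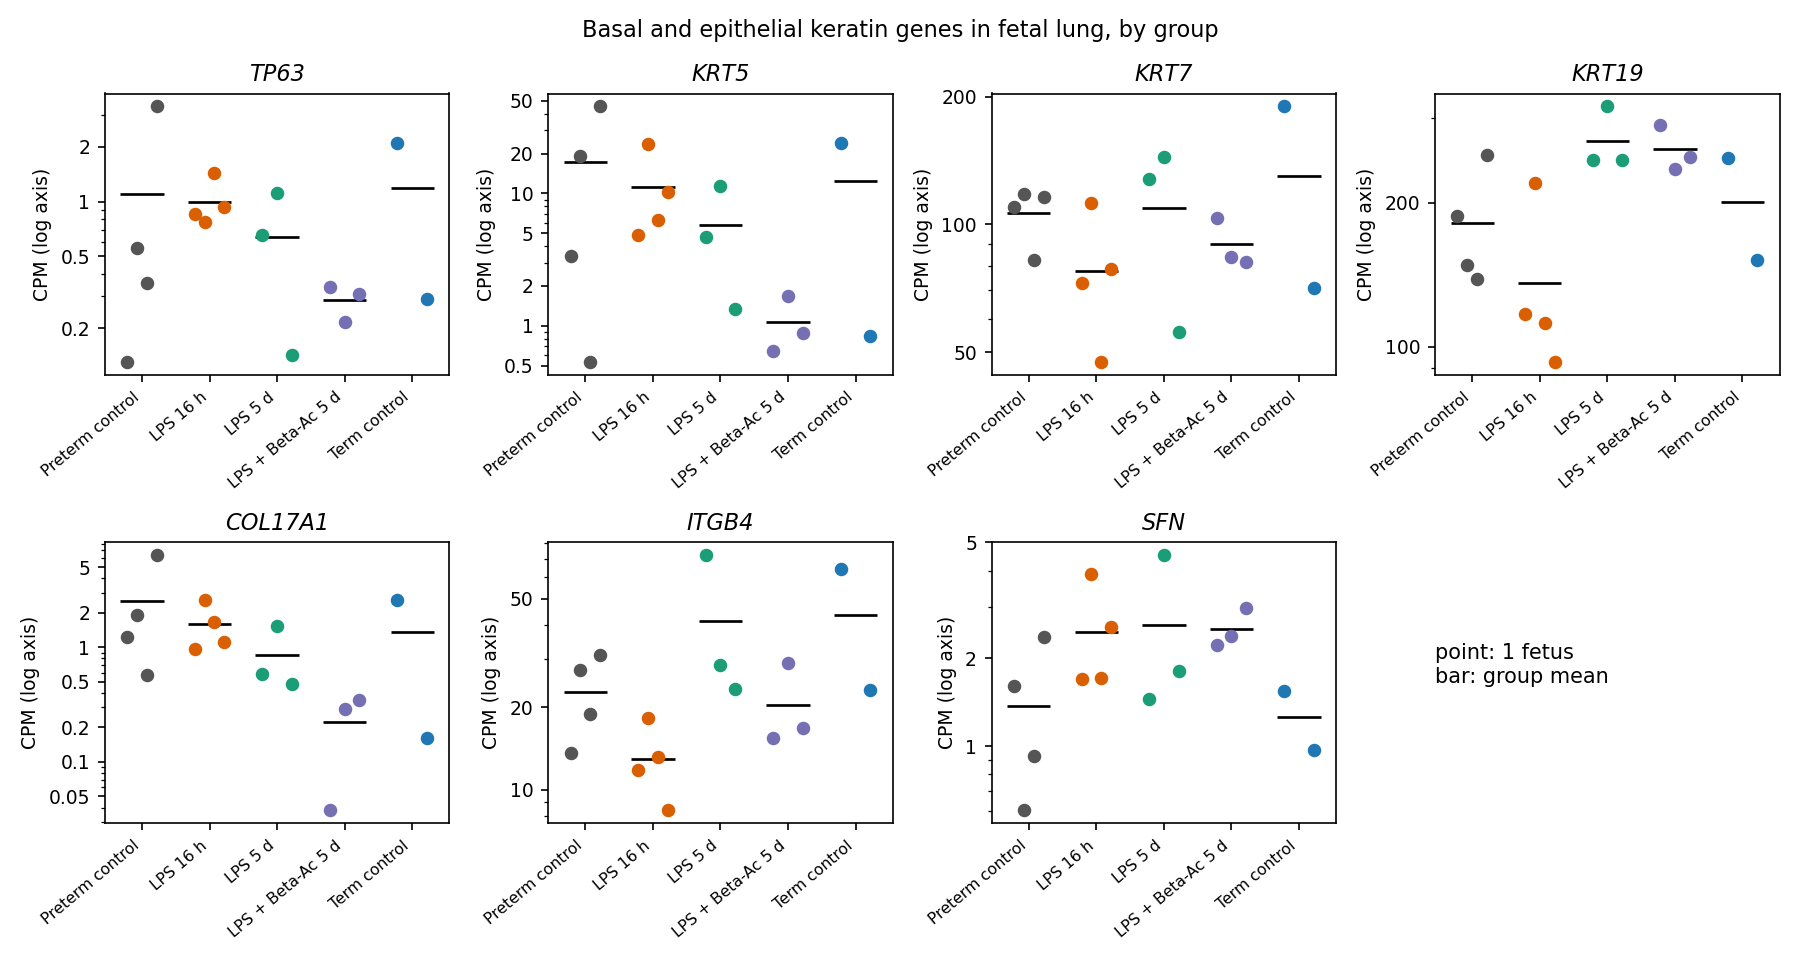
CPM on a log axis for the 7 genes, 1 panel each, in the 5 groups; each point is 1 fetus and each bar a group mean. TP63, KRT5 and COL17A1 spread widely within the preterm and term controls (KRT5 from 0.532 to 45.6 CPM in preterm controls), whereas all LPS 16 h fetuses lie below all LPS fetuses at 5 days for KRT19 and ITGB4.

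Differences between groups were tested with limma on log2 CPM over all genes. Calls needed a change of at least 2-fold together with an adjusted p (Benjamini-Hochberg) under 0.05. The first question was what LPS did to these genes after 16 hours. None of the 7 genes was called against preterm controls (0 of 7, against 14.4% of all genes tested), and limma-voom also called 0. By limma, 1 of the 7 had an unadjusted p below 0.05, against 47% of all genes. That gene was SFN, at a log2 fold change of 0.90 ± 0.418 (SE, adjusted p = 0.104). ITGB4 stood at -0.80 ± 0.409 (adjusted p = 0.142), KRT7 at -0.51 ± 0.340 (adjusted p = 0.261) and KRT19 at -0.46 ± 0.251 (adjusted p = 0.164). TP63 at 0.67 ± 0.767, KRT5 at 0.52 ± 1.29 and COL17A1 at -0.23 ± 0.786 had errors about as large as their differences or larger. For TP63 and KRT5 the sign depended on the scale: their mean CPM was lower at 16 hours than in preterm controls (0.997 against 1.10, and 11.3 against 17.2). Preterm control 209 decided part of this count: without it SFN was called at 1.21 (adjusted p = 0.0344), and with term control 200 left out as well TP63 was called too, at 1.47 (adjusted p = 0.0477). Those 2 libraries were left out because TP63, KRT5 and COL17A1 were high in them, so the TP63 value is not independent of the choice.

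At 5 days after LPS, none of the 7 genes was called against preterm controls (0 of 7, against 4.84% of all genes). By limma, 1 had an unadjusted p below 0.05 (against 28% of all genes), and limma-voom called 0. KRT19 was that gene, at 0.60 ± 0.271 on the log2 scale (adjusted p = 0.161). SFN stood at 0.88 ± 0.451 (adjusted p = 0.224), ITGB4 at 0.75 ± 0.442 (adjusted p = 0.297) and COL17A1 at -1.12 ± 0.849 (adjusted p = 0.434). KRT7, at -0.06 ± 0.367, KRT5, at -0.62 ± 1.39, and TP63, at -0.21 ± 0.83, were within 1 SE of 0.

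The early and late responses to LPS differed for KRT19 and ITGB4. Direct comparison of LPS 16 h with LPS at 5 days called 2 of the 7 genes, against 14.6% of all genes. KRT19 was 2.09-fold lower at 16 hours (log2 -1.06 ± 0.271, adjusted p = 0.00681) and ITGB4 2.92-fold lower (log2 -1.55 ± 0.442, adjusted p = 0.0139), and for both genes the 2 groups did not overlap. KRT7 went the same way without a call (-0.44 ± 0.367, adjusted p = 0.383), TP63 (0.88 ± 0.83), KRT5 (1.14 ± 1.39) and COL17A1 (0.89 ± 0.849) stood on the other side of 0 without one, and SFN was at 0.02 ± 0.451. The ITGB4 call was lost without LPS fetus 239, the one at 72.3 CPM (-1.06, adjusted p = 0.0817). KRT19 fell short of 2-fold without LPS 16 h fetus 038 (-0.92, adjusted p = 0.0216) or LPS fetus 240 (-0.94, adjusted p = 0.0352). Leukocyte markers summed to 2110 to 2890 CPM at 16 hours against 165 to 200 CPM at 5 days, alveolar type 1 markers to 1440 to 1710 against 3360 to 4370 CPM, and pan-epithelial markers to 830 to 1160 against 1050 to 1210 CPM; their part in the KRT19 and ITGB4 differences was not tested.

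With Beta-Ac added to LPS, 1 of the 7 genes was called against preterm controls, against 6.49% of all genes. COL17A1 was 7.11-fold lower (log2 -2.83 ± 0.849, adjusted p = 0.0325). The call rested on few counts: it was absent in limma-voom (log2 -3.22, adjusted p = 0.126) and when preterm control 101 (adjusted p = 0.0657), preterm control 209 (0.0745), LPS + Beta-Ac fetus 248 (0.159) or fetus 249 (0.0661) was left out, while the log2 difference stayed between -3.33 and -2.19. KRT5 had a difference of similar size with a wider error, -2.63 ± 1.39 (adjusted p = 0.230), and TP63 stood at -0.88 ± 0.83 (adjusted p = 0.524). SFN, at 1.00 ± 0.451 (adjusted p = 0.148), and KRT19, at 0.55 ± 0.271 (adjusted p = 0.193), stood above the controls without a call, and KRT7 (-0.24 ± 0.367) and ITGB4 (-0.14 ± 0.442) were within 1 SE of 0. In the same comparison ciliated-cell markers summed to 35.8 to 54.2 CPM against 38.5 to 195 CPM in preterm controls, and secretory-cell markers to 33.7 to 126 against 42.2 to 546 CPM; their part in the COL17A1 difference was not tested.

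The effect of Beta-Ac on top of LPS was tested by comparing the 2 groups at 5 days. None of the 7 genes was called (0 of 7, against 0.0885% of all genes), and limma-voom called 0. By limma, 0 had an unadjusted p below 0.05, against 4.81% of all genes. The differences were -2.0 ± 1.49 for KRT5, -1.71 ± 0.908 for COL17A1, -0.89 ± 0.472 for ITGB4 and -0.68 ± 0.886 for TP63, each with an adjusted p of 1 by limma. KRT7, KRT19 and SFN differed by -0.18 ± 0.393, -0.05 ± 0.290 and 0.13 ± 0.482. COL17A1 did not overlap between the groups, and KRT5, ITGB4 and TP63 did. The share of all genes without overlap was not counted, so the COL17A1 separation was not read as an effect of Beta-Ac.

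Normal advance of gestation was addressed by term against preterm controls. No gene of the 7 was called (0 of 7, against 2.07% of all genes), and limma-voom called 0. By limma, 0 had an unadjusted p below 0.05, against 18.9% of all genes. With 2 term fetuses that differed 28.5-fold for KRT5, 15.9-fold for COL17A1 and 7.20-fold for TP63, this comparison could show little for the basal genes: KRT5 stood at -0.48 ± 1.58, COL17A1 at -1.20 ± 0.963 and TP63 at 0.44 ± 0.940. ITGB4 stood at 0.83 ± 0.501 (adjusted p = 0.407), and KRT7, KRT19 and SFN at 0.14 ± 0.416, 0.14 ± 0.307 and 0.01 ± 0.511.

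**Figure D2:**
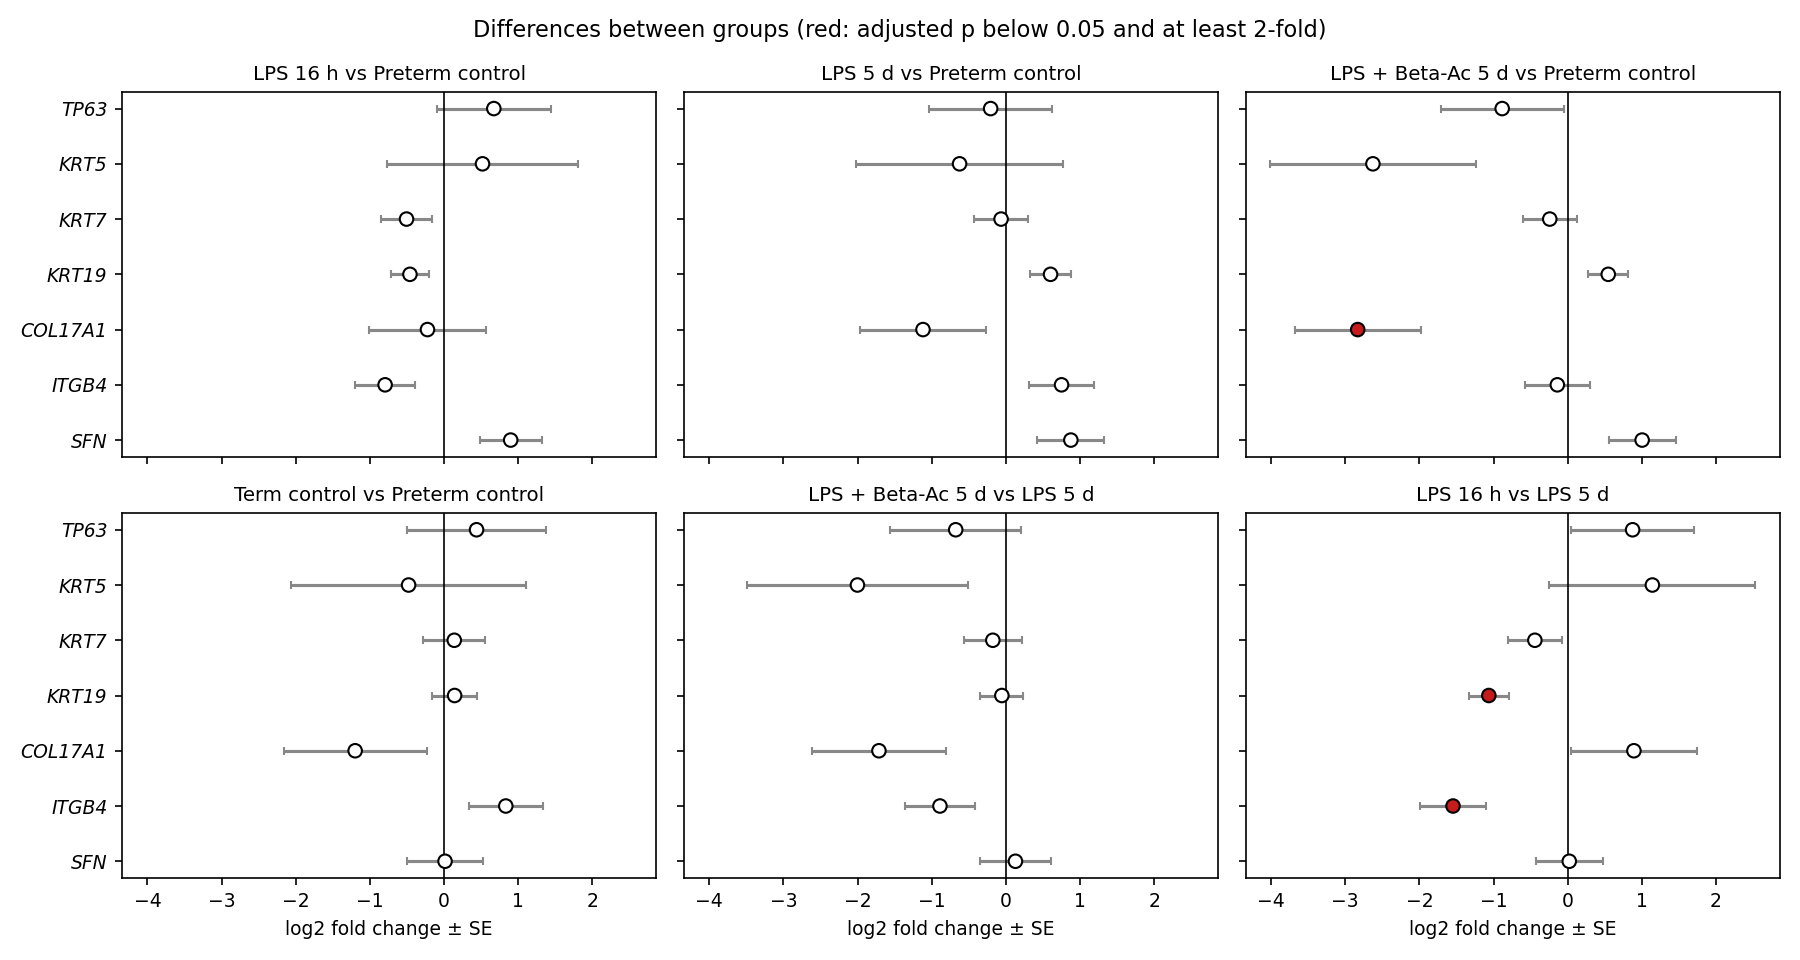
Log2 fold change of each gene (first group minus second) with its SE in the 6 comparisons, the first group named first in each title; red points passed both the adjusted p and the 2-fold limit. The 3 red points are COL17A1 in LPS + Beta-Ac against preterm controls (-2.83) and KRT19 (-1.06) and ITGB4 (-1.55) in LPS 16 h against LPS at 5 days.

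Levels of the 7 genes were also compared from animal to animal. After subtracting group means, 20 of 21 pairs of the genes had a positive r, so a shared direction within groups was not particular to the basal genes: KRT5 and KRT7 gave 0.721, KRT19 and SFN 0.728, and KRT19 and COL17A1 0.651. Over the 21 pairs among the 7 genes, 3 had adjusted permutation p values below 0.05 by both Pearson and Spearman correlation of log2 CPM over the 16 animals. KRT5 and COL17A1 gave r = 0.902 and rho = 0.915 (permutation p = 1e-05 for each, the smallest the permutations can give, and 0.00021 adjusted), r = 0.924 without animals 209 and 113, and r = 0.892 after subtracting group means. TP63 and KRT5 gave r = 0.779 (permutation p = 0.00044, adjusted 0.00462) and rho = 0.747 (permutation p = 0.0013, adjusted 0.0136), with r = 0.778 without animals 209 and 092 and 0.738 within groups. TP63 and COL17A1 gave r = 0.716 (permutation p = 0.00197, adjusted 0.0138) and rho = 0.703 (permutation p = 0.00337, adjusted 0.0236), with r = 0.745 without the same 2 animals and 0.730 within groups. ITGB4, the partner of COL17A1 in the hemidesmosome, gave r = 0.155 with it (permutation p = 0.568, adjusted 0.746) and rho = 0.162 (permutation p = 0.547, adjusted 0.766), r = -0.00768 without animals 248 and 209, and 0.589 within groups.

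The animals with high KRT5 were also high for genes of ciliated and secretory airway cells. After subtracting group means, r was positive in 28 of 28 relations between the 7 genes and 4 marker lists. Of the 28 relations over all animals, 9 had both adjusted p values below 0.05. KRT5 followed the mean log2 CPM of 5 secretory-cell genes with r = 0.957 and rho = 0.974 (permutation p = 1e-05 for each, the smallest possible, adjusted to 7e-05 and 0.00014), r = 0.946 without animals 209 and 200, and 0.966 within groups. Against 6 ciliated-cell genes KRT5 gave r = 0.911 and rho = 0.915 (permutation p = 1e-05 for each, adjusted 7e-05 and 0.00014), r = 0.891 without animals 209 and 201, and 0.954 within groups. COL17A1 gave r = 0.853 and rho = 0.812 with the ciliated-cell genes (permutation p = 1e-05 and 0.00028, adjusted 7e-05 and 0.0014), r = 0.769 without the same 2 animals, and 0.956 within groups. Its r with the secretory-cell genes was 0.874 and its rho 0.856 (permutation p = 1e-05 and 7e-05, adjusted 7e-05 and 0.000653), with r = 0.804 without animals 209 and 200. TP63 gave r = 0.860 and rho = 0.797 with the secretory-cell genes (permutation p = 4e-05 and 0.00038, adjusted 0.000224 and 0.00152), r = 0.742 without animals 209 and 200, and r = 0.733 and rho = 0.729 with the ciliated-cell genes (permutation p = 0.00111 and 0.00167, adjusted 0.00388 and 0.00584), r = 0.637 without animals 209 and 201.

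Cartilage genes of the large airways, such as COL2A1 and ACAN, gave a weaker relation by Pearson r. COL17A1 had r = 0.751 and rho = 0.809 with 6 of them (permutation p = 0.00045 and 0.00016, adjusted 0.0021 and 0.00112) and r = 0.645 without animals 209 and 029, with 0.643 within groups. That rho was close to its 0.812 with the ciliated-cell genes. KRT5 had r = 0.635 and rho = 0.597 (permutation p = 0.00237 and 0.0164, adjusted 0.00737 and 0.0458), which dropped to r = 0.402 without those 2 animals, so that over all animals it rested on them; within groups, with both included, r was 0.623. TP63 had r = 0.559 and rho = 0.456 (permutation p = 0.021 and 0.0779, adjusted 0.0534 and 0.156). Its r was 0.208 without animals 209 and 029, and 0.687 within groups. Summed cartilage markers reached 310 CPM in preterm control 209 and were at 95.2 CPM or more in all preterm controls, against 51.2 to 129 CPM over all other animals. By group means these sums were mostly COL9A1, at 147 CPM in preterm controls and 66.6 CPM at term. COL2A1 had means of 31.2 and 1.84 CPM in the same groups. Whether the frozen pieces of lung differed in the share of large airway was not tested.

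Over all animals KRT19 followed the mean of 10 pan-epithelial genes, such as EPCAM, CDH1 and NKX2-1, with r = 0.773 and rho = 0.801 (permutation p = 0.00056 and 0.0003, adjusted 0.00224 and 0.0014), r = 0.769 without animals 101 and 240, and 0.764 within groups. KRT5 had no such relation over all animals (r = -0.109, permutation p = 0.684, adjusted 0.783; rho = 0.0235, permutation p = 0.933, adjusted 0.967; r = -0.0403 without animals 101 and 240), at r = 0.469 within groups. Within groups KRT19 also gave r = 0.710 with the cartilage, 0.608 with the ciliated-cell and 0.598 with the secretory-cell genes, and COL17A1 gave 0.619 with the pan-epithelial genes.

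**Figure D3:**
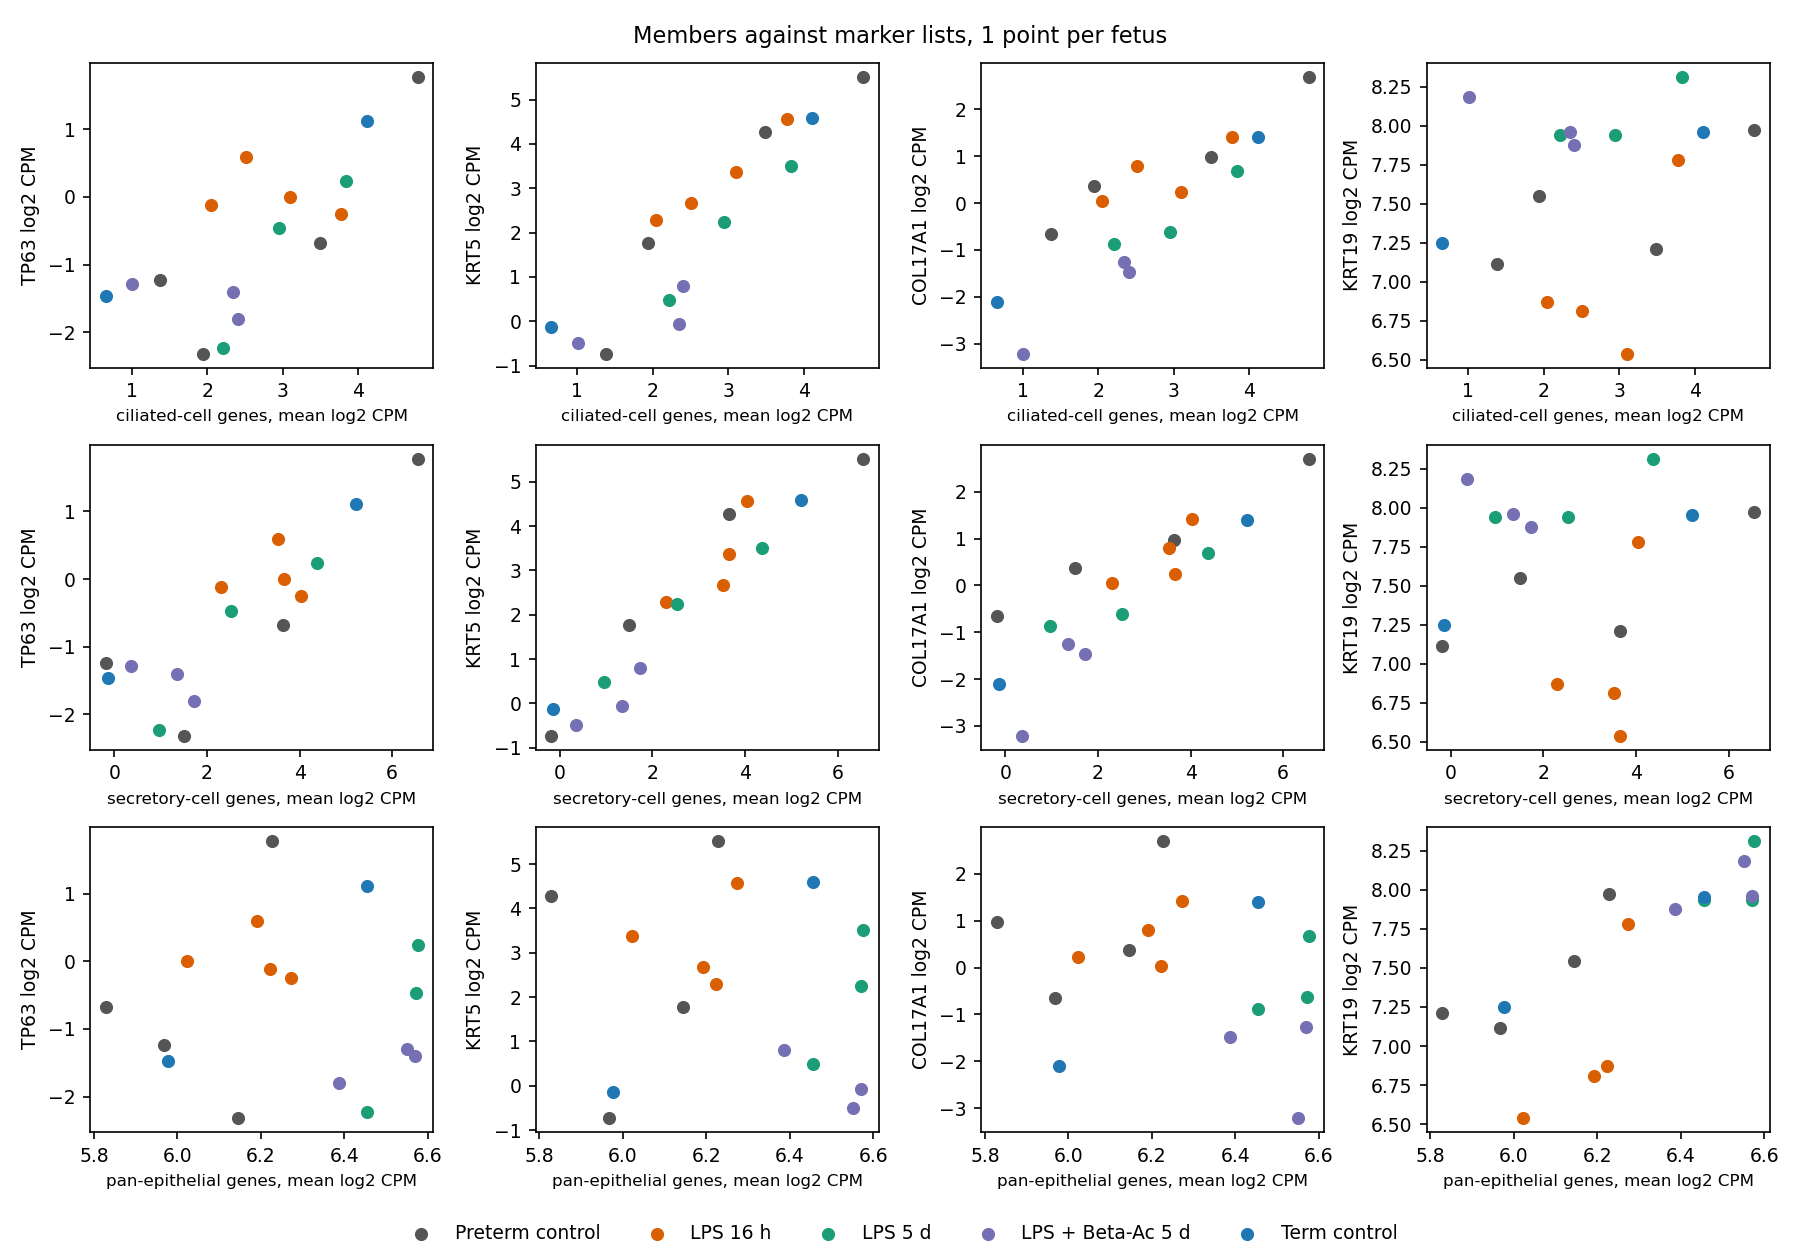
Log2 CPM of TP63, KRT5, COL17A1 and KRT19 (vertical axes) against the mean log2 CPM of ciliated-cell, secretory-cell and pan-epithelial genes (horizontal axes), 1 point per fetus, coloured by group. KRT5 rises with the secretory-cell genes across all groups (r = 0.957), while KRT19 rises with the pan-epithelial genes (r = 0.773).

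As a measure of likeness, the tested genes with the highest Pearson correlation to each of the 7 genes over the 16 animals were listed, as a description. KRT5 was most like DYDC2 (r = 0.972), ENKUR (0.967) and CCDC81 (0.967), COL17A1 most like CFAP54 (0.936), MAK (0.929) and CCN3 (0.925), and TP63 most like NEK10 (0.871), ABCB11 (0.870) and SAXO2 (0.870). ENKUR and CFAP54 are components of cilia and sperm tails. KRT19 was most like C14H11orf52 (0.954), HSD11B1L (0.945) and HINT2 (0.935), and KRT7 most like LOXL3 (0.846), APOBEC2 (0.835) and MYCBPAP (0.824). ITGB4 was most like AGER (0.856), a marker of alveolar type 1 cells, and PAQR7 (0.849), and SFN most like YDJC (0.849), MTCH1 (0.841) and DDR1 (0.824).

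The relatives and partners of the 7 genes were counted in lists that include them where they belong. Each count stands against the share of all genes called in the same comparison. Against preterm controls that share was 14.4% at 16 hours, 4.84% in LPS at 5 days, 6.49% in LPS + Beta-Ac and 2.07% at term. Between 16 hours and 5 days it was 14.6%, and between LPS + Beta-Ac and LPS 0.0885%. With so few genes to a list, no count was read as particular to it. Of 4 tested basal and stratified keratins, KRT4, a keratin of mucosal surfaces, was called lower at 16 hours than in preterm controls (log2 -2.28, adjusted p = 0.00647 by limma; 0.51 to 1.88 against 2.73 to 23.3 CPM, the highest in animal 209), and KRT13, its partner, lower at 16 hours than at 5 days (-1.93, adjusted p = 0.0473); none was called in the other 4 comparisons. KRT16 shared the animal pattern of KRT5, at 3.12 to 63.6 CPM in preterm controls with animal 209 the highest. Its close relatives KRT14 and KRT17 matched no ID, so the reads of KRT16 are uncertain. Of 6 tested simple epithelial keratins, KRT19 and KRT23 (-1.49, adjusted p = 0.0428) were called lower at 16 hours than at 5 days and none in any other comparison. KRT18, the usual partner of KRT8, stood on the other side, at 184 ± 47.5 CPM (SD, n = 4) at 16 hours, 93.4 ± 15 in preterm controls (n = 4) and 110 ± 12 at 5 days (n = 3). Its log2 differences of 0.96 (adjusted p = 0.000437) and 0.72 (adjusted p = 0.00703) passed the adjusted p and not the 2-fold limit.

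In the hemidesmosome and its laminin, 9 genes were tested. LAMA3, the laminin chain that binds the ITGB4 integrin, was called lower at 16 hours than in preterm controls (-1.13, adjusted p = 7.8e-06) and than at 5 days (-1.66, adjusted p = 4.84e-07), at 148 to 162 CPM in LPS 16 h against 262 CPM or more in every preterm control. COL17A1 and ITGB4 were the only other calls of this list, in 1 comparison each. Short of 2-fold, LAMB3 stood above preterm controls at 16 hours (0.43, adjusted p = 0.00814 by limma), in LPS (0.79, 0.000963) and in LPS + Beta-Ac (0.71, 0.00128). LAMA3 was higher in LPS (0.54, 0.0187) and LPS + Beta-Ac (0.47, 0.0322). At 16 hours DST (-0.58, 0.00433) and CD151 (-0.52, 0.0238) were lower. The list's median log2 difference between 16 hours and 5 days was -0.36, against -0.04 over all genes. Of 9 tested desmosome genes, which join neighbouring cells through the same keratins, DSP (-1.54, adjusted p = 0.000123) and JUP (-1.06, adjusted p = 8.82e-05) were called lower at 16 hours than at 5 days, and PKP2 (1.09, adjusted p = 0.000247) higher at 16 hours than in preterm controls. The desmosome median was -0.62 between 16 hours and 5 days. At 16 hours against preterm controls it was -0.47, with 2 genes higher and 7 lower. There JUP (-0.97, adjusted p = 7.7e-05 by limma), PERP (-0.94, 0.00047) and DSP (-0.74, 0.0135) passed the adjusted p and not the 2-fold limit.

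Among 8 tested basal cell markers other than keratins, which include TP63 and SFN, NGFR and DLK2 were called higher at 16 hours than in preterm controls (1.86, adjusted p = 0.000167, and 2.51, adjusted p = 0.0193) and than at 5 days (2.22, adjusted p = 7.98e-05, and 3.34, adjusted p = 0.00623). NGFR, the low-affinity neurotrophin receptor, is also made by nerve and stromal cells. At 16 hours, 5 of the 8 stood higher and 3 lower than in preterm controls. SNAI2 was lower than in preterm controls by limma, passing the adjusted p and not the 2-fold limit. It stood at -0.65 at 16 hours (adjusted p = 0.00114), -0.95 in LPS at 5 days (0.000677) and -0.89 in LPS + Beta-Ac (0.000613). The untreated term controls were lower as well, at -0.61 (0.0462). None of the 8 was called in the other 4 comparisons. Of the 7 genes of the 14-3-3 family, YWHAG was called higher at 16 hours than at 5 days (1.19, adjusted p = 2.26e-06), SFN was not called in any comparison, and no other call was made. Among 10 tested p53 targets, SFN included, the calls were CDKN1A (1.69), GDF15 (1.99) and ZMAT3 (1.71) at 16 hours, ZMAT3 (1.14) and BBC3 (1.18) in LPS at 5 days, GDF15 (3.50), ZMAT3 (1.48) and BBC3 (1.43) in LPS + Beta-Ac, and ZMAT3 (1.35) at term, all higher than in preterm controls. Against preterm controls, 3 of the 10 stood lower at 16 hours, 3 in LPS, 4 in LPS + Beta-Ac and 4 at term. Short of 2-fold, SESN1 (-0.94, adjusted p = 0.000293 by limma) was lower and BAX (0.57, 0.0122) higher at 16 hours. RRM2B was lower at 16 hours (-0.45, 0.029), in LPS (-0.87, 0.00278) and in LPS + Beta-Ac (-0.79, 0.00361). Between 16 hours and 5 days CDKN1A (1.37) was higher and BBC3 (-1.53) lower at 16 hours.

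**Figure D4:**
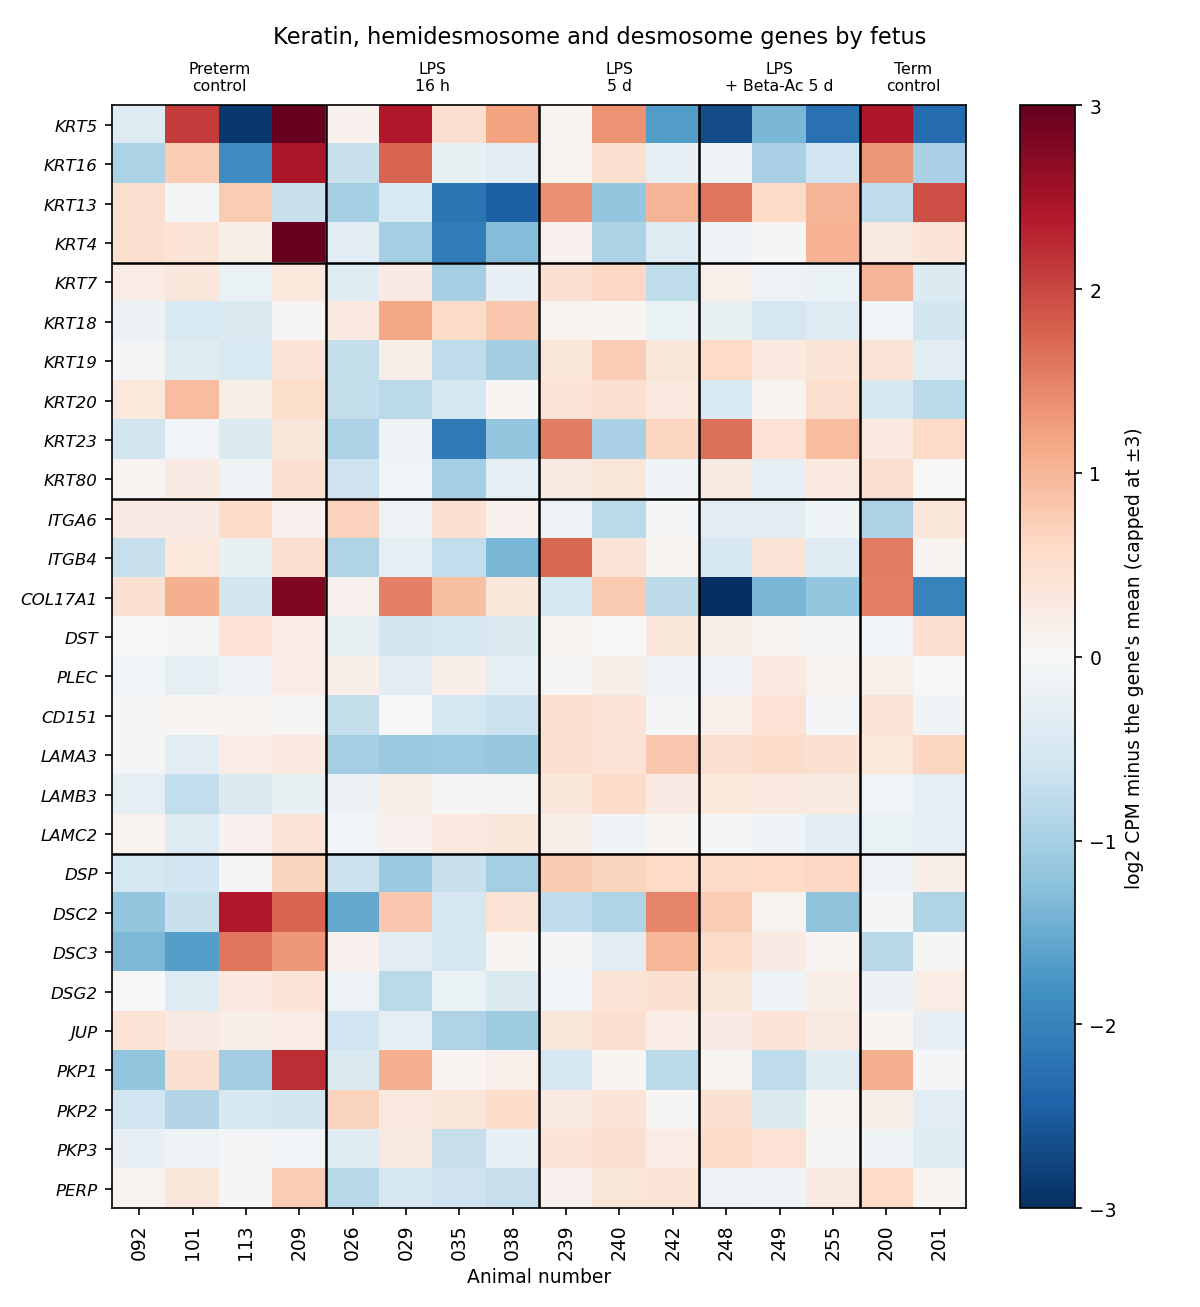
Log2 CPM of each tested keratin, hemidesmosome and desmosome gene minus its mean over 16 fetuses (rows, capped at 3 in either direction), with fetuses in columns by group; horizontal lines divide stratified keratins, simple keratins, hemidesmosome and desmosome genes. KRT5, KRT16 and COL17A1 are high in animals 209, 029 and 200 whatever their group, whereas LAMA3, DSP and JUP are lower in all LPS 16 h fetuses than in all LPS fetuses at 5 days.

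Markers of other lung cells are given as the setting of these values. Of 10 tested pan-epithelial genes, ELF3 (1.28) and SPINT1 (1.09) were called higher at 16 hours and ELF3 (1.36) at 5 days than in preterm controls, and NKX2-1 lower at 16 hours than at 5 days (-1.19). No gene of the 6 ciliated-cell and 5 secretory-cell markers was called in any of the 6 comparisons. Of 6 cartilage genes, those called against preterm controls were COL9A1 (-1.05) at 16 hours, COL2A1 (-2.28) and ACAN (-1.57) at 5 days, ACAN (-2.30) and COL2A1 (-2.24) with Beta-Ac and COL2A1 (-3.19) at term, and ACAN was higher at 16 hours than at 5 days (1.60). Of 5 tested mesothelial genes, LRRN4 (2.54) and UPK3B (-2.08) were called at 16 hours and ITLN1 (2.31) at term against preterm controls, and LRRN4 (2.12), UPK3B (-1.74) and ITLN1 (-1.57) between 16 hours and 5 days.

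Alveolar type 1 markers, 7 in number, gave 5 lower calls at 16 hours against preterm controls, led by AQP5 (-2.45), CLIC5 (-1.94) and CAV1 (-1.69), and 5 lower calls against 5 days, led by AQP5 (-2.83), RTKN2 (-2.11) and CLIC5 (-1.89), with RTKN2 (1.27) higher at term. Of 7 alveolar type 2 markers, 4 were called higher at 16 hours, 3 at 5 days and 5 with Beta-Ac than in preterm controls, led by LAMP3 (2.22), SFTPA1 (2.16) and SFTPA1 (2.47), and LAMP3 was higher at 16 hours than at 5 days (1.88). Leukocyte markers were called higher in 6 of 6 tested genes at 16 hours and with Beta-Ac and in 4 of 6 at 5 days and at term against preterm controls, and in 6 of 6 at 16 hours against 5 days, with S100A9 at 7.79, 3.94, 1.85, 3.41 and 5.94.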

How the data were processed

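Whole-number counts per gene and animal were deposited by the authors, who sequenced poly(A)-selected lung RNA as 75 bp paired-end reads, assigned them with kallisto to Mmul_10 and summarized them per gene. The authors used DESeq2 for their own comparisons. For tool versions, annotation release and rounding, the sources used here give nothing. The automatic check could not read the column names, so the authors' unit was recorded as other although every value was a whole number of 0 or more. The quasi-likelihood count test and other count models were therefore not run, and limma took their place.

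Symbols came from the reference table by Ensembl ID (17256 of 22515 IDs). Genes at 0.371 CPM or more in 2 animals and 15 counts in total were tested (19199). Counts were scaled by TMM (30% and 5% trimming, own function), turned into log2 CPM (prior count 2), and fitted in R 4.3.3 with limma 3.58.1 (trend, robust, all 16 animals, 1 mean per group); calls needed an adjusted p below 0.05 and 2-fold. The steps were tested on simulated data. Correlations used 100000 two-sided permutations. Same-group libraries differed more than sampling noise (chi-square per degree of freedom 31.1 to 166 in 19 pairs). P-values cover the spread between animals, 1 library each.

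The 7 genes and the lists (of 118 list genes, 103 were tested) were chosen with earlier results of these data known. Genes named are the 7, up to 3 called genes per list and comparison by size of change, and 3 genes per member by likeness, of which 1 is not reported here. KRT16, KRT18, EPCAM and CDH1 were named after their values were seen. Alternatives were other scalings, no filter, another prior, limma-voom, smaller fits, no fold minimum and leaving out animals.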

Additional observations from a re-analysis of the deposited data

Results flagged for a closer look

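TP63 in preterm control 209 stood apart from the other 3 preterm controls, with a gap to the nearest of them of 0.868 of the group's range in CPM, above Dixon's 95% critical value for 4 samples. On the log2 CPM scale used for the tests the gap was 0.599 of the range, below that value. Chance gives such a gap in about 1 in 20 groups, and 14 were checked. The response to LPS differed between 16 hours and 5 days for KRT19 (log2 -1.06) and ITGB4 (log2 -1.55), tested directly between the LPS groups.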

How the results depend on the processing

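The KRT19 and ITGB4 differences between LPS 16 h and LPS at 5 days kept their direction under all alternatives, between -1.33 and -0.92 and between -1.87 and -1.06 on the log2 scale. The count of called genes was 1 or 2 when 1 animal was left out. The COL17A1 call in LPS + Beta-Ac against preterm controls was lost in limma-voom (0 genes) and in 4 of 7 fits that left out 1 animal (0 or 1 genes). Against preterm controls, LPS 16 h gave 0 or 1 called genes when 1 animal was left out and 2 without both preterm control 209 and term control 200, an alternative chosen after seeing the data. The cause was not tested. Depth limits TP63 and COL17A1, with 6 to 9 and 1 to 9 counts per LPS + Beta-Ac library. Scaling by total counts moved the median of all genes by -0.29 at 16 hours against preterm controls and by -0.22 against 5 days. No paired analysis was possible because the groups share no animal number.

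Differences that were not called changed sign as follows. By total counts SFN stood at -0.16 between 16 hours and 5 days, and by limma-voom SFN stood at -0.030 at term against preterm controls. Without animals 209 and 200 and against preterm controls, COL17A1 stood at 0.39 at 16 hours, TP63 at 0.59 and KRT5 at 0.31 in LPS, ITGB4 at 0.033 in LPS + Beta-Ac, and TP63 at -0.059, KRT7 at -0.53 and KRT19 at -0.043 at term. With 1 animal left out, the ranges against preterm controls at 16 hours were -0.72 to 0.39 for COL17A1 and -0.63 to 1.45 for KRT5. In LPS they were -0.78 to 0.59 for TP63, -1.77 to 0.31 for KRT5 and -0.29 to 0.36 for KRT7, and in LPS + Beta-Ac -0.40 to 0.056 for ITGB4. At term they were -0.86 to 1.73 for TP63, -2.84 to 1.88 for KRT5, -0.57 to 0.85 for KRT7, -0.21 to 0.50 for KRT19, -2.96 to 0.56 for COL17A1 and -0.30 to 0.33 for SFN. Between LPS + Beta-Ac and LPS they were -0.61 to 0.078 for KRT7, -0.15 to 0.068 for KRT19 and -0.19 to 0.61 for SFN, and between 16 hours and 5 days -0.30 to 0.50 for SFN.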
